A study of Mus musculus with 12 samples.

Results

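The genes described are those of the cytosolic ribosomal proteins, chosen by name: protein-coding genes whose mouse symbol starts with Rpl or Rps and a digit, together with Rplp0, Rplp1, Rplp2, Rpsa and Fau. Rps6k kinases (8 genes) and 29 pseudogenes with such symbols were left out. This gave 82 of the 12483 genes in the count table, and all 82 were among the 12231 genes that passed the filter on low counts. They comprise 45 proteins of the large subunit, 32 of the small subunit, 4 paralogs of core proteins (Rpl7l1, Rpl22l1, Rpl36al and Rps27l) and Rps19bp1. The last carries the name because its protein binds Rps19 and is no subunit itself. Rpl24 was not analysed here.

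RNA was measured in RAW264.7 cells, a mouse macrophage line, grown as single-cell clones after transfection with CRISPR constructs directed at both flanks of an element called NRE1. The labels give 3 wild-type clones (WT 1, 2 and 3) and 3 clones with the deletion (KO 1A, 1B and 2), and they do not say what NRE1 stands for or how KO 1A and 1B are related. Each clone was kept in medium or given 10 ng/mL LPS (lipopolysaccharide, a bacterial wall component) with 50 ng/mL IFN-gamma (interferon gamma) for 6 h, which made 12 libraries in 4 groups of 3. No gene in the table bears the name of the element, so the deletion could not be read from the libraries. All genotypes share the parental line, and every clone passed through 1 cell, so differences between clones enter each comparison of KO with WT.

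Cytosolic ribosomal proteins build the small subunit, which reads the message, and the large subunit, which joins amino acids. Each ribosome holds 1 copy of nearly every such protein, and cells balance their synthesis by controlling transcription and, through the mTORC1 pathway, the translation of messages that start with a run of pyrimidines, the 5′ terminal oligopyrimidine or TOP motif. Macrophages given LPS change both the production and the use of ribosomes as they switch to making cytokines. An RNA-seq count measures the amount of message only and says nothing of how often it is translated.

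The starts of these genes are shown first, because the TOP motif is the sequence feature for which the family is known. RefSeq promoter entries (build GRCm38.p6) were found for 62 of the 82 genes, of which 9 had more than 1 listed start and were read at the first one. A run of at least 5 pyrimidines (letters C and T, led by C) that covered the annotated start or lay within 5 bases of it was present in 31 of 62, or 50%, against 27.0% of the 8903 tested genes with an entry. The stretches below give 15 bases before and 15 after the start on the gene's own strand, with the run in capitals. Those with a long run are Rps6 (chr4:86857353-86857382, minus strand), the small-subunit protein phosphorylated downstream of mTORC1, Fau (chr19:6057932-6057961, plus strand), which encodes small-subunit protein S30 fused to a ubiquitin-like protein, and the large-subunit genes Rpl15 (chr14:18270972-18271001, minus strand) and Rpl35 (chr2:39005117-39005146, minus strand).
Rps6: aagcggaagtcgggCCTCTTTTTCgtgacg
Fau: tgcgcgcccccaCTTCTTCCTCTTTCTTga
Rpl15: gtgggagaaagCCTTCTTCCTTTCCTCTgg
Rpl35: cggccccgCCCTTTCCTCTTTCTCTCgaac

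For contrast, no such run was found at the listed starts of Rpl10 (chrX:74270801-74270830, plus strand), which encodes a large-subunit protein, Rps3a1 (chr3:86142654-86142683, minus strand), Rps13 (chr7:116334176-116334205, minus strand) and Rpsa (chr9:120127751-120127780, plus strand), which encode small-subunit proteins. The absence of a run says only that the letters are not in this window of the entry used.
Rpl10: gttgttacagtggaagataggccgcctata
Rps3a1: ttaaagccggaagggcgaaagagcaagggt
Rps13: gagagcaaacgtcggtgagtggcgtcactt
Rpsa: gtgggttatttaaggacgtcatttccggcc

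Across the 300 bases of each entry, on either strand, the letters CCGGAAG, a form of the ETS factor motif, occurred in 38.7% of the 62 genes and in 20.3% of the 8903. The letters AAGATGGC, a form of the YY1 motif, occurred in 9.68% and 5.28%. Genes with and without a run of 5 pyrimidines had similar median responses to LPS/IFN-gamma, with log2 fold changes of 0.41 and 0.36 in WT clones and 0.35 and 0.36 in KO clones (31 genes in each class). These are descriptions of the letters and not of factor binding.

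The libraries held between 10624591 and 14388590 counts, and the 82 genes took 174940 to 246699 of them. The macrophage label was checked with 12 marker genes, all of which were listed, while 1 of 7 T or NK cell markers, 1 of 6 B cell markers, 1 of 5 neutrophil markers and none of 5 fibroblast and 4 epithelial markers were (0 listed for either). Mitochondrially encoded genes took 1.24% to 2.53% of counts. Scaling matters for everything below: the TMM factors, which scale libraries on the assumption that most genes do not change, were 1.10 to 1.17 in medium and 0.856 to 0.918 under LPS/IFN-gamma. With library totals alone the median log2 fold change of all genes in response to LPS/IFN-gamma was -0.37 in WT and -0.39 in KO clones, against -0.01 for both with TMM.

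Ribosomal protein messages spanned 3 orders of magnitude in these counts. Mean levels over the 12 libraries ran from 0.923 to 2006 CPM (counts per library, scaled by TMM to a common size), with a median of 56.3. Per kilobase of annotated exon the range was 0.813 to 1661 CPM, with a median of 24.8. Among the highest per length were Rplp1, an acidic stalk protein of the large subunit, at 1661 CPM per kb, Rpl8 at 1167, Rpl4 at 999 and Rps15 at 640. The lowest were Rps13 at 0.813 CPM per kb, Rpl29 at 0.820, Rps16 at 1.30, Rpl28 at 1.99 and Rps27 at 2.07.

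The level moved with how much of each message is unique in the annotation. The shortest principal transcript of each gene was divided into 50-base windows, and the share of windows found in no other annotated gene had a median of 39.4%. It was 1.35% for Rps27, 17.0% for Rps13, 21.5% for Rpl29, 83.5% for Rpl4, 92.1% for Rpl8 and 97.0% for Rps3. The 53 genes below 50% had a median level of 14.1 CPM per kb, and the 29 genes at 50% or more had a median of 143 CPM per kb. Over the 82 genes the Spearman correlation of the unique share with the level per length was 0.59, a description across genes that share libraries. At least 1 annotated pseudogene shared a window with 80 of the 82, and Rpl7a shared windows with the most, 121. Exceptions remained on both sides: Rplp1 had the highest level with 40% of its windows unique, and Rps29 had 4.56 CPM per kb with 64.2% unique. How reads with several matches were counted is not given in the sources used here, its part in the levels was not tested, and the levels of single genes are uncertain for that reason.

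**Figure D1:**
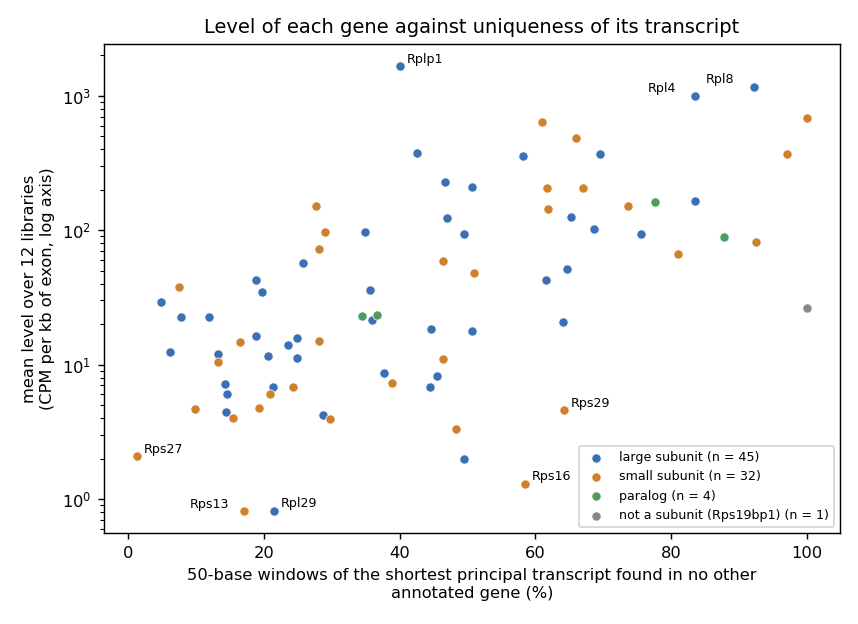
Mean level of each of the 82 genes (CPM per kb of exon, log axis) against the percentage of 50-base windows of its shortest principal transcript that occur in no other annotated gene; each point is 1 gene, coloured by role. Genes with few unique windows lie mostly low, and Rpl8 and Rpl4, with 92.1% and 83.5% unique windows, lie at 1167 and 999 CPM per kb.

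The 29 pseudogenes with ribosomal protein names held 43145 counts over the 12 libraries, which equals 1.76% of the 2455661 counts of the 82 genes. Pseudogenes under other names are not in this sum. The pooled share does not hold for single genes: Rps13-ps2 had group means of 18.6 to 36.4 CPM, above the mean of 2.19 CPM for Rps13. The largest pseudogene row, Rpl14-ps1, had group means of 126 to 152 CPM, below the mean of 348 CPM for Rpl14. Some genes also share exon with a neighbour: 66.2% of the exon bases of Rpl35 overlap Wdr38 and 59.7% of those of Rpl23a overlap Tlcd1, each on the opposite strand, and 29.4% of those of Rpl13a overlap Gm45713 on the same strand. Whether the counting used strand is not given in the sources used here, so the values of Rpl35 and Rpl23a are uncertain. The response to LPS/IFN-gamma had no such relation to uniqueness: the Spearman correlation of the unique share with the log2 fold change was 0.01 in WT and -0.08 in KO clones over the 82 genes.

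The response to LPS/IFN-gamma in WT clones was a shift of most of the family toward higher levels relative to other genes. The median log2 fold change of the 82 genes was 0.37, against -0.01 for all genes, and 78 of the 82 values were above 0. Under edgeR's quasi-likelihood test with Benjamini-Hochberg adjustment over all 12231 genes, 36 of the 82 were called higher, where 23.8% of all genes were called higher, and 0 were called lower, where 23.6% of all genes were. At an unadjusted p below 0.05, 49 were higher and 0 lower, beside 27.3% of all genes in each direction. DESeq2 called 45 higher and 0 lower, beside 25.6% and 24.2% of all genes. These directions hold relative to the bulk of genes: with library totals alone the median of the 82 was 0.01, 1 was called higher and 3 were called lower. Of all 12231 genes, 1586 were called higher and 5240 lower with that scaling, at a median of -0.37.

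By role, 18 of the 45 large-subunit genes, 14 of the 32 small-subunit genes and 4 of the 5 others rose in WT clones under TMM scaling. The large- and small-subunit medians were both 0.37. The count depended on the clones. It was 9 genes called higher without WT 2, 12 without WT 3 and 16 without KO 1A, which enters the estimate of the spread. Of all genes tested in these fits, 2446 of 12299, 2427 of 12316 and 2526 of 12352 were called higher. The share called higher was thus smaller in the family than among all genes there. It was larger in the fits without WT 1, KO 1B or KO 2, with 28, 30 and 31 called. Of all genes in those fits, 2522 of 12301, 2618 of 12313 and 2825 of 12320 were called higher. With the clone as a replicate block, which pairs the medium and stimulated library of each clone, 55 were called higher, beside 29.8% of all genes. The median changed little, lying between 0.33 and 0.37 over the 6 fits that each left out 1 clone.

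In KO clones, too, most of the family was higher after LPS/IFN-gamma relative to other genes. The median log2 fold change was 0.35 (all genes -0.01) and 79 of the 82 values were above 0. Under TMM scaling 37 were called higher, where 26.7% of all genes were, and 0 lower, where 27.6% of all genes were. At an unadjusted p below 0.05, 44 were higher and 0 lower, beside 29.1% and 30.5% of all genes. DESeq2 called 42 higher and 0 lower, beside 28.3% and 27.4% of all genes. With library totals alone the median was -0.03, 1 was called higher and 3 lower, where 14.7% and 45.1% of all genes were. By role 15 of 45 large-subunit genes, 19 of 32 small-subunit genes and 3 of the 5 others rose. The count fell to 6 without KO 1A, 7 without KO 1B and 22 without KO 2, and to 6 when KO 1A and 1B were summed into 1 replicate. Of all genes tested in these fits, 2295 of 12352, 2448 of 12313, 2556 of 12320 and 2460 of 12355 were called higher. The share called higher was thus smaller among the 82 than among all genes, except in the fit without KO 2. The median stayed between 0.30 and 0.41 when 1 clone was left out.

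Seen clone by clone, the median log2 ratio of stimulated to medium was 0.33, 0.34 and 0.36 in WT 1, 2 and 3 and 0.39, 0.44 and 0.22 in KO 1A, 1B and 2. Of the 82 genes, 60 were higher after stimulation in all 6 clones, 12 in 5, 7 in 4, 2 in 3 and 1 in 2. Both responses called 27 genes higher, which is 75% of the WT calls and 73.0% of the KO calls, and 36 genes were called in neither. The counts by clone and of shared calls were not made over all genes, so neither is read as particular to the family. Across the 82 genes the responses of WT and KO clones, which share no library, had a Pearson correlation of 0.60 and a Spearman correlation of 0.63. Over all genes the Pearson correlation was 0.95.

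**Figure D2:**
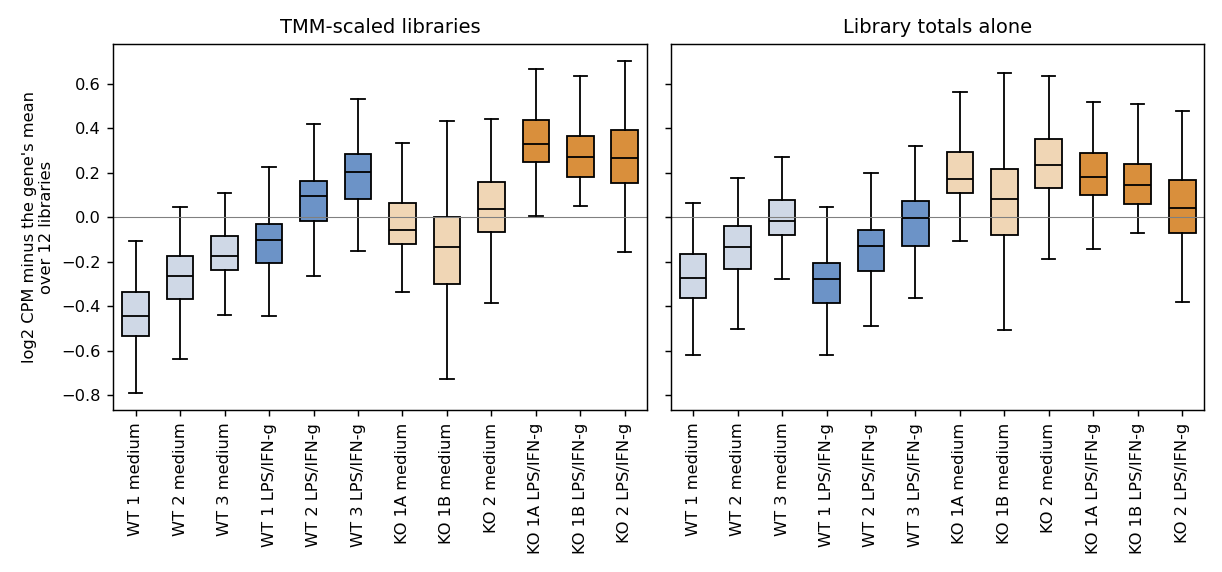
Boxes show, for each library, the 82 genes' log2 CPM minus each gene's mean over the 12 libraries (line, median; box, quartiles; whiskers to 1.5 times the box length), with TMM scaling on the left and library totals alone on the right. Stimulated libraries lie above the medium library of the same clone with TMM scaling, whereas with library totals they do not lie above it in every clone, and the medians of KO libraries lie above those of WT libraries of the same condition in both panels.

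The share of all counts taken by the 82 genes needs no scaling factor. In medium it was 1.43%, 1.62% and 1.71% in WT 1, 2 and 3 and 1.90%, 1.85% and 2.06% in KO 1A, 1B and 2. After LPS/IFN-gamma it was 1.43%, 1.58% and 1.72% in the WT clones and 1.93%, 1.86% and 1.79% in the KO clones. The conditions overlapped within each genotype, whereas every KO library lay above every WT library in the same condition. WT means were 1.59% ± 0.146 in medium and 1.58% ± 0.145 after stimulation (SD, n = 3; exact two-sided permutation p = 0.8), and KO means were 1.93% ± 0.111 and 1.86% ± 0.0714 (SD, n = 3; exact permutation p = 0.5). The difference between KO and WT had an exact permutation p = 0.1 in both conditions, the smallest that 3 against 3 allows (0.2 after adjustment over the 4 comparisons). In bulk RNA a change in the level per cell and a change in the make-up of the culture cannot be told apart.

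The ratio of large- to small-subunit counts was 1.46 ± 0.00746 in WT medium libraries and 1.42 ± 0.0190 in stimulated ones (SD, n = 3), with no overlap (exact two-sided permutation p = 0.1, the smallest possible). In KO clones it was 1.41 ± 0.0484 and 1.36 ± 0.0140, and these groups overlapped (SD, n = 3; exact permutation p = 0.2). Adjusted over 4 comparisons of the ratio these values were 0.2 and 0.267.

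**Figure D3:**
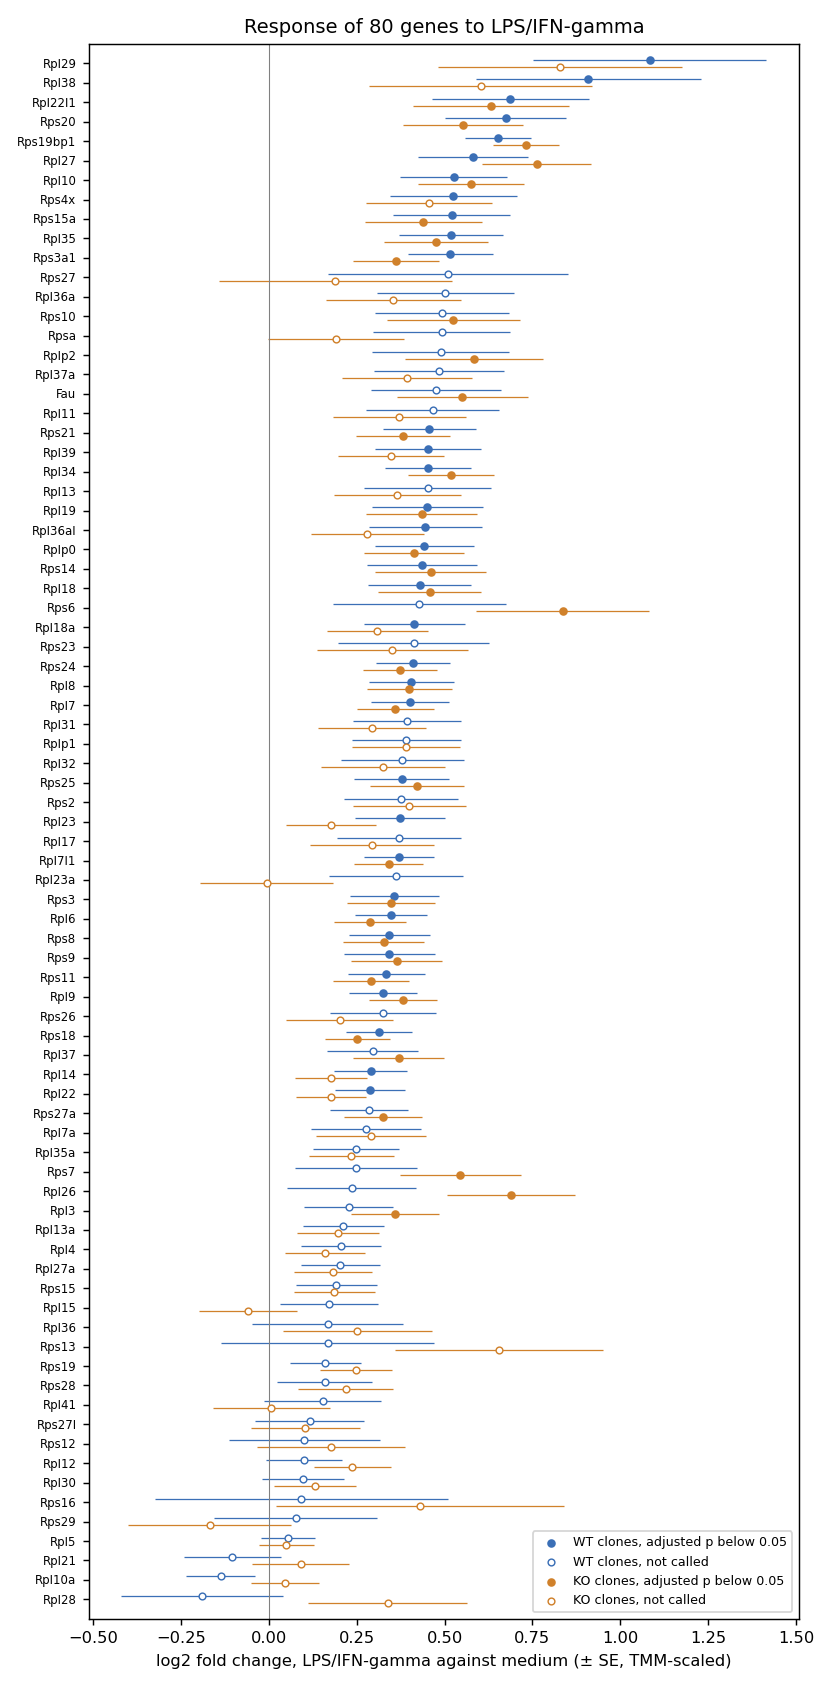
Log2 fold change (± SE) of 80 of the 82 genes in response to LPS/IFN-gamma, TMM-scaled, for WT (blue) and KO clones (orange), sorted by the WT value; filled points passed an adjusted p below 0.05. Most points lie right of 0, from Rpl29 at 1.08 to Rpl28 at -0.19 in WT; with library totals alone the medians of the 82 are 0.01 and -0.03.

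Rps19bp1 had the smallest p-values of the set in both responses. Its level was 21.4, 21.5 and 23.7 CPM in WT medium libraries and 32.7, 36.8 and 35.3 CPM after stimulation. KO libraries gave 22.1, 20.9 and 21.2 CPM in medium and 34.0, 35.6 and 37.1 CPM after stimulation. The stimulated libraries lay above all medium libraries, and the genotypes overlapped. The log2 fold change was 0.65 ± 0.09 (SE) in WT and 0.73 ± 0.09 in KO clones, with edgeR adjusted p of 0.00025 and 8.9e-05. It was the 1 gene of the 82 called higher with library totals alone, at 0.29 in WT and 0.35 in KO clones.

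Among the stalk proteins, which recruit elongation factors, Rplp0 rose in WT clones by 0.44 ± 0.14 and in KO clones by 0.41 ± 0.14 (log2, SE; edgeR adjusted p = 0.024 and 0.029). Its levels were 408, 504 and 490 CPM in WT medium, 515, 682 and 708 CPM in WT stimulated, 533, 487 and 612 CPM in KO medium and 731, 702 and 741 CPM in KO stimulated libraries. Stimulated libraries lay above medium libraries within each genotype, with a narrow gap in WT. Rplp1 had values of 0.39 ± 0.15 in both genotypes and was not called (adjusted p = 0.057 in WT and 0.052 in KO), but was with the replicate block (0.0015 and 0.0012). Rplp2 gave 0.49 ± 0.20 in WT clones (adjusted p = 0.060; 0.0043 with the replicate block) and rose by 0.58 ± 0.20 in KO clones (adjusted p = 0.026). With library totals the 3 stalk genes lay between 0.01 and 0.20 and none passed the test.

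Other large-subunit genes with the highest values in the responses included Rpl27, Rpl38 and Rpl29. Rpl27 was at 22.5, 18.9 and 27.1 CPM in WT medium and 28.7, 32.4 and 41.2 CPM in WT stimulated libraries, and at 30.1, 26.2 and 26.5 CPM in KO medium and 46.6, 47.0 and 46.7 CPM in KO stimulated libraries. Groups did not overlap within a genotype, and the KO stimulated libraries lay above all others. It rose by 0.58 ± 0.16 in WT and 0.76 ± 0.16 in KO clones (log2, SE; edgeR adjusted p = 0.011 and 0.0018). Rpl38, whose loss in mice changes skeletal patterning, was at 5.36, 6.81 and 5.54 CPM in WT medium and 8.12, 11.8 and 13.4 CPM in WT stimulated libraries. In KO clones it was at 11.9, 4.53 and 11.02 CPM in medium and 14.4, 12.1 and 15.1 CPM after stimulation, the low medium value being KO 1B. It rose by 0.91 ± 0.32 in WT (adjusted p = 0.037), and had a value of 0.60 ± 0.32 in KO clones (adjusted p = 0.13; 0.023 with the replicate block). Rpl29 had the largest WT value, 1.08 ± 0.33 (adjusted p = 0.020), but at a mean of 0.923 CPM and as few as 6 counts in a library, and its KO value of 0.83 ± 0.35 did not pass the test (adjusted p = 0.064).

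A few large-subunit genes stayed near 0. Rpl5, which with Rpl11 binds 5S ribosomal RNA and the p53 regulator Mdm2, was at 48.7, 45.2 and 44.5 CPM in WT medium and 47.2, 46.7 and 49.8 CPM in WT stimulated libraries. KO libraries ranged from 49.0 to 50.2 CPM in medium and from 51.0 to 52.1 CPM after stimulation. The WT groups overlapped and the KO groups differed by little. Its log2 fold change was 0.05 ± 0.08 (SE) in both genotypes, with edgeR adjusted p of 0.59 for WT and 0.61 for KO. With library totals Rpl5 was called lower, at -0.30 in WT and -0.33 in KO clones. Rpl10a, of the mobile stalk near the site where tRNA leaves, gave -0.14 ± 0.10 in WT and 0.04 ± 0.10 in KO clones (not called, adjusted p = 0.27 and 0.71), and with library totals was called lower in both, at -0.50 and -0.33. Rpl21, at -0.10 ± 0.14 in WT (adjusted p = 0.57), and Rpl15, at -0.06 ± 0.14 in KO clones (adjusted p = 0.73), completed the lower calls with library totals, at -0.46 and -0.44 respectively.

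Among small-subunit genes, Rps20 had the largest WT value. It was at 205, 227 and 230 CPM in WT medium and 292, 350 and 414 CPM in WT stimulated libraries. In KO clones it was at 305, 238 and 385 CPM in medium, again lowest in KO 1B, and 470, 424 and 469 CPM after stimulation. The conditions did not overlap in either genotype. Rps20 rose by 0.67 ± 0.17 in WT and by 0.55 ± 0.17 in KO clones (log2, SE; edgeR adjusted p = 0.0079 and 0.018). Rps3, an abundant core protein, rose by 0.36 ± 0.13 in WT clones and by 0.35 ± 0.13 in KO clones (adjusted p = 0.036 in each). With library totals its log2 values were -0.0016 and -0.032.

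Rps6 had the largest KO value of the set. It was at 4.13, 4.38 and 6.28 CPM in WT medium and 4.75, 6.49 and 8.73 CPM in WT stimulated libraries, which overlapped, and at 5.25, 5.61 and 4.19 CPM in KO medium and 8.90, 9.48 and 8.54 CPM in KO stimulated libraries, which did not. It rose by 0.84 ± 0.25 in KO clones (edgeR adjusted p = 0.014), and its WT value of 0.43 ± 0.25 passed the test with the replicate block only (adjusted p = 0.18, 0.046 with the block). Rps13, at 1.28 to 3.62 CPM, gave 0.65 ± 0.29 in KO clones (adjusted p = 0.081; 0.025 with the replicate block) and 0.17 ± 0.30 in WT clones (0.68). Rps29, which holds a zinc finger, was lowest in KO clones at -0.17 ± 0.23 (0.56).

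Fau and Rpsa, whose protein was first known as a laminin receptor, are small-subunit genes outside the numbered names. Fau rose by 0.55 ± 0.19 in KO clones (edgeR adjusted p = 0.027) and gave 0.48 ± 0.19 in WT clones (0.054; 0.019 with the replicate block). Rpsa gave 0.49 ± 0.19 in WT (0.057; 0.032 with the block) and 0.19 ± 0.19 in KO clones (0.42). With library totals Rpsa lay at 0.13 in WT and -0.18 in KO clones, so its sign depended on the scaling.

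The paralogs are encoded by separate genes, and some of them can take the place of their core protein in ribosomes. Rps27l, a target of p53, was listed at 161 CPM per kb, against 2.07 CPM per kb for Rps27. Rpl36al lay at 23.3 CPM per kb against 6.07 for Rpl36a. The core gene was higher in the other pairs: Rpl22 lay at 94.2 CPM per kb against 22.9 for Rpl22l1, and Rpl7 at 230 against 89.7 for Rpl7l1, a protein of nucleolar ribosome assembly. Only 1.35% of the windows of Rps27 and 14.5% of those of Rpl36a were unique, so the order within these pairs rests on genes whose counts are uncertain. Per 1000 unique windows of all coding transcripts the order turned for Rpl36a (159 CPM, Rpl36al 29.2) and Rpl22 (143 CPM, Rpl22l1 198). It held for Rps27 (6.27 CPM, Rps27l 251) and Rpl7 (1013 CPM, Rpl7l1 108).

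Within the Rpl22 pair, Rpl22l1 was at 25.6, 31.0 and 38.6 CPM in WT medium and 47.6, 46.2 and 59.6 CPM in WT stimulated libraries. In KO clones it was at 42.0, 26.4 and 48.8 CPM in medium, with KO 1B lowest, and 62.4, 52.4 and 66.6 CPM after stimulation. The conditions did not overlap in either genotype. Rpl22l1 rose by 0.69 ± 0.22 in WT and 0.63 ± 0.22 in KO clones (log2, SE; edgeR adjusted p = 0.026 and 0.032). Rpl22 rose by 0.29 ± 0.10 in WT (0.034) and gave 0.18 ± 0.10 in KO clones (0.15), and was at -0.07 in WT with library totals. The difference between Rpl22l1 and Rpl22 was not tested.

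Rpl7 and Rpl7l1 both rose, by 0.40 ± 0.11 and 0.37 ± 0.10 in WT clones (edgeR adjusted p = 0.012 and 0.0099) and by 0.36 ± 0.11 and 0.34 ± 0.10 in KO clones (0.017 and 0.013), while with library totals all 4 values lay between -0.04 and 0.04. Rpl36al rose by 0.45 ± 0.16 in WT (0.042) and gave 0.28 ± 0.16 in KO clones (0.16), beside 0.50 ± 0.19 and 0.35 ± 0.19 for Rpl36a (0.053 and 0.14). Rps27l had the paralogs' values nearest 0, at 0.12 ± 0.15 in WT and 0.10 ± 0.15 in KO clones (0.57 and 0.59). Rps27 gave 0.51 ± 0.34 and 0.19 ± 0.33 at 1.25 to 3.27 CPM (0.24 and 0.65).

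**Figure D4:**
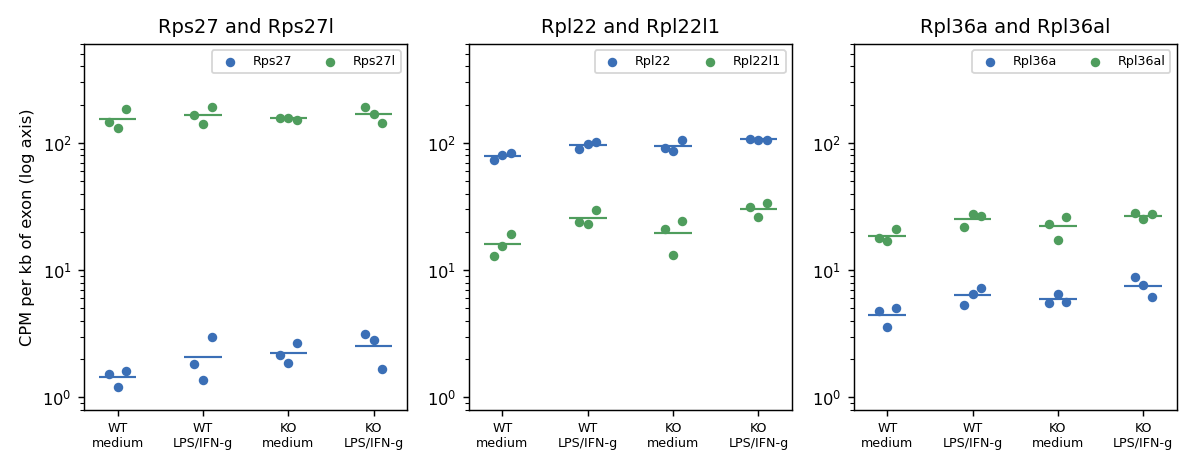
Level in each library (CPM per kb of exon, log axis) of Rps27, Rpl22 and Rpl36a (blue) and their paralogs (green); points are 3 libraries per group and lines are group means. Rps27l lies above Rps27 in every library, Rpl22l1 lies below Rpl22, and Rpl36al lies above Rpl36a.

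The ribosomal protein genes that host small nucleolar RNAs in their introns, 30 of the 82, had median log2 fold changes of 0.35 in WT and 0.30 in KO clones with TMM scaling. Of the 30, 10 were called higher in each genotype, beside the 23.8% and 26.7% of all genes given above. The other 52 had medians of 0.40 and 0.37, with 26 and 27 called higher. With library totals alone the medians of the 30 were -0.01 and -0.08, with 0 called higher in either genotype, and those of the 52 were 0.04 and -0.01, with 1 called higher in each. The difference between these classes was not tested. With TMM scaling the 4 X-linked genes had medians of 0.51 and 0.40.

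Most of the 82 genes had higher values in deletion clones than in WT clones, with almost no gene called by itself. In medium the median log2 difference of KO from WT was 0.24, against -0.01 for all genes, and 77 of 82 values were above 0. None passed edgeR's test: 0 were called higher, where 0.352% of all genes were, and 0 lower, where 0.858% were. At an unadjusted p below 0.05, 15 were higher and 0 lower, beside 4.99% and 9.08% of all genes. DESeq2 called 1 higher and 0 lower, beside 1.38% and 3.7% of all genes; this was Rpl30 (0.41, adjusted p = 0.036), named here after its value was seen. In 26 of the 82 genes every KO library lay above every WT library in medium, where this held for 9.5% of all genes. The reverse order was seen in 0 genes, where 11.4% of all genes had it.

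After LPS/IFN-gamma the median difference was 0.24 (all genes -0.02), and 1 of 82 was called higher, where 1.13% of all genes were, with 0 called lower, where 3.51% were. At an unadjusted p below 0.05, 21 were higher and 0 lower, beside 8.03% and 13.2% of all genes. DESeq2 called 6 higher and 0 lower, beside 3.14% and 6.48% of all genes. The 6 were Rpl10a, Rpl12, Rpl26, Rpl30, Rps12 and Rps27a. In 35 of the 82 genes all KO libraries lay above all WT libraries, where this held for 11.3% of all genes, and 0 showed the reverse, where 12.7% did. With library totals the medians were 0.30 in medium and 0.28 after stimulation, so the direction did not depend on scaling. With 1 clone left out in turn they ran from 0.17 to 0.30 in medium and from 0.14 to 0.32 after stimulation. The comparisons of KO with WT share libraries with the responses described above.

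**Figure D5:**
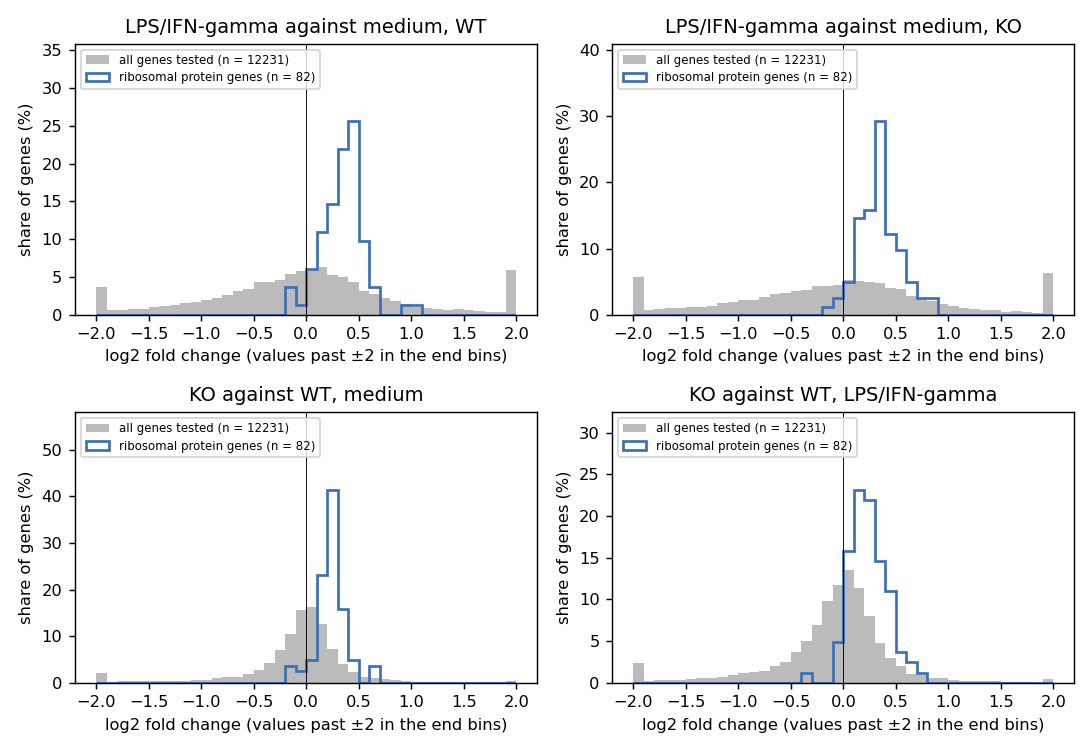
Share of genes (%) by log2 fold change for all 12231 genes tested (grey) and the 82 ribosomal protein genes (blue outline) in each of the 4 comparisons, TMM-scaled. The 82 genes lie to the right of the bulk in all 4, with medians of 0.37, 0.35, 0.24 and 0.24; with library totals alone these are 0.01, -0.03, 0.30 and 0.28.

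Rpl10a was the 1 gene that edgeR called between the genotypes with TMM scaling and all 12 libraries. After stimulation it was at 43.4, 50.1 and 46.2 CPM in WT and 66.9, 59.3 and 61.5 CPM in KO libraries, and in medium at 53.5, 47.1 and 53.1 CPM in WT and 64.6, 57.4 and 59.9 CPM in KO libraries. KO libraries lay above WT libraries in both conditions. The log2 difference was 0.43 ± 0.10 after stimulation (SE; edgeR adjusted p = 0.034) and 0.24 ± 0.10 in medium (0.28). The call held without WT 2 (adjusted p = 0.028), and was lost without WT 1 (0.099), WT 3 (0.059), KO 1A (0.25), KO 1B (0.14) or KO 2 (0.090) and with KO 1A and 1B summed (0.16).

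Several genes had larger differences between the genotypes that did not pass edgeR's test with TMM scaling and all 12 libraries. Rps12, a small-subunit protein, was at 5.65, 7.28 and 8.21 CPM in WT medium and 7.30, 5.88 and 9.50 CPM in WT stimulated libraries, against 12.5, 8.65 and 11.4 CPM in KO medium and 12.3, 12.5 and 11.9 CPM in KO stimulated libraries. All KO libraries lay above the WT libraries of the same condition. Its differences were 0.62 ± 0.21 in medium and 0.69 ± 0.21 after stimulation (log2, SE; edgeR adjusted p = 0.20 and 0.096). Rpl26, which binds the p53 message, was at 4.84, 5.27 and 6.17 CPM in WT and 9.93, 7.63 and 8.75 CPM in KO stimulated libraries, a difference of 0.69 ± 0.18 (0.058; with library totals 0.73 and 0.047). Rps13 differed by 0.78 ± 0.30 after stimulation (0.17), Rps27 by 0.62 ± 0.34 in medium (0.46) and Rpl38 by 0.63 ± 0.32 in medium (0.42). These genes lie at low counts, whereas Rps20, whose levels are given above, differed by 0.49 ± 0.17 in medium (0.21). After stimulation DESeq2 called Rps12 and Rpl26, each at 0.70 (DESeq2 adjusted p = 0.043 and 0.023). So did edgeR without WT 3 (edgeR adjusted p = 0.038 and 0.042).

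At the other end were some, but not all, of the genes that are no core subunits. In medium Rps19bp1 gave -0.05 ± 0.09, Rpl7l1 -0.05 ± 0.10 and Rps27l 0.02 ± 0.15 (edgeR adjusted p = 0.87, 0.90 and 0.98). After stimulation Rpl7l1 gave -0.07 ± 0.10 and Rps27l 0.01 ± 0.15 (0.72 and 0.98). Rpl22l1 and Rpl36al, by contrast, gave 0.30 ± 0.22 and 0.25 ± 0.16 in medium (0.61 and 0.56). After stimulation they gave 0.24 ± 0.22 and 0.08 ± 0.16 (0.58 and 0.82). The median of the 5 genes that are no core subunits was 0.02 in medium and 0.03 after stimulation, beside 0.24 and 0.25 for the 77 core subunits; this difference was not tested. Among the lowest core genes in medium was Rpl29, at -0.13 ± 0.35 (0.92), and Fau gave -0.11 ± 0.19 in medium and -0.04 ± 0.19 after stimulation (0.85 and 0.93).

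Macrophage markers also differed between the groups. Their summed level over the 12 genes was 8917 to 19969 CPM in WT medium libraries and 5056 to 14481 CPM in KO medium libraries, and 10940 to 20980 against 6973 to 13054 CPM after stimulation. These ranges overlap, and their part in the differences of the ribosomal protein genes was not tested. By group mean Lyz2 was the largest part of the sums, at 10038 CPM in WT and 4818 CPM in KO medium libraries. Mean levels of Cd14 (423 and 465 CPM) and Ptprc (349 and 351 CPM) were not lower in KO medium libraries, while those of the other markers were. The median coefficient of variation of the 82 genes between clones was 11.2% in WT medium, 12.4% in WT stimulated, 10.5% in KO medium and 5.88% in KO stimulated libraries, beside 15.3%, 18.3%, 10.2% and 11.3% for all genes. For the 7467 genes with mean levels between the quartiles of the 82 (14.2 and 268 CPM) it was 12.4%, 14.6%, 8.01% and 8.80%.

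The test of the difference between the responses of KO and WT clones called 0 of the 82 genes and 0 of all genes in either direction (0.0% of all genes higher and 0.0% lower). At an unadjusted p below 0.05 there were 0 of the 82 and 611 of all genes, and DESeq2 called 0 of the 82 but 13 of all genes higher and 7 lower. The replicate block called 0 of the 82 and, of all genes, 20 higher and 20 lower. The median difference was -0.02. Among the highest values were Rpl28 at 0.53 ± 0.32 and Rps13 at 0.49 ± 0.42, and the lowest were Rpl23a at -0.37 ± 0.27, Rps27 at -0.32 ± 0.48 and Rpl38 at -0.31 ± 0.45 (log2, SE; edgeR adjusted p = 1.00 for each).

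Rack1, a scaffold protein of the small subunit outside the symbol rule, was at a mean of 2359 CPM and rose by 0.40 ± 0.14 in WT clones (edgeR adjusted p = 0.036), with 0.35 ± 0.14 in KO clones (0.053).

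Genes that work with the ribosome were taken from 6 lists, to be read beside the shares of all genes called and their medians of -0.01 given above. Of 32 translation initiation factors, 15 rose and 0 fell in WT clones and 16 rose and 1 fell in KO clones (medians 0.32 and 0.35; with library totals 2 higher and 6 lower in WT, 5 and 3 in KO). Eif1a, which helps the small subunit scan for the start codon, rose by 1.14 ± 0.10 and 1.27 ± 0.10 (log2, SE; edgeR adjusted p = 1.1e-05 and 3.9e-06), and the helicase gene Eif4a1 rose by 0.59 ± 0.10 in WT and 0.69 ± 0.10 in KO clones (0.00057 and 0.00016). Of 17 elongation factors and other messages of the TOP class, 6 rose and 1 fell in WT and 7 rose and 2 fell in KO clones (medians 0.25 and 0.31; with library totals 0 higher and 3 lower in each). Btf3, of the nascent chain complex, rose by 0.54 ± 0.12 and 0.61 ± 0.12 (0.0031 and 0.0011), and Eif4b, a helicase cofactor, fell by 0.42 ± 0.13 and 0.47 ± 0.13 on the log2 scale (0.018 and 0.0088).

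Of 24 tested chaperones and assembly factors of ribosomal subunits, 8 rose and 1 fell in WT and 15 rose and 0 fell in KO clones (medians 0.26 and 0.36; with library totals 4 higher and 3 lower, and 6 and 2). Eif6, which keeps the large subunit from joining too early, rose by 0.94 ± 0.11 and 1.21 ± 0.11 (log2, SE; edgeR adjusted p = 5.5e-05 and 8e-06), and Sbds, which helps release it, rose by 1.07 ± 0.14 in WT and 1.18 ± 0.14 in KO clones (0.00013 and 5.3e-05). Rrs1, of large-subunit assembly, fell by 0.43 ± 0.16 in WT clones (0.039) and gave -0.10 ± 0.16 in KO clones (0.60). Of 22 genes for transcription of ribosomal RNA and protein genes, 4 rose and 7 fell in WT and 7 rose and 4 fell in KO clones (medians 0.07 and 0.02; with library totals 1 higher and 10 lower, and 2 and 11). Ubtf, which opens ribosomal DNA for RNA polymerase I, fell by 0.93 ± 0.13 in WT and 1.08 ± 0.13 in KO clones (0.00024 and 6.9e-05), and Gtf3a, the factor for 5S RNA genes, fell by 1.02 ± 0.11 and 1.57 ± 0.11 (4.1e-05 and 2.1e-06). Myc, an activator of ribosome genes, had group means of 7.37 and 13.2 CPM in WT medium and stimulated libraries and 0.624 and 10.9 CPM in KO libraries, and rose by 4.14 ± 0.80 in KO clones (0.0014), with 0.85 ± 0.64 in WT clones (0.30).

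Of 15 genes of mTORC1 and TOP message control, 2 rose and 2 fell in WT and 6 rose and 2 fell in KO clones (medians -0.04 and 0.29; with library totals 0 higher and 7 lower, and 3 and 6). Larp1, which binds TOP messages, rose by 0.76 ± 0.15 in WT and 0.83 ± 0.15 in KO clones (log2, SE; edgeR adjusted p = 0.0016 and 0.00076). Rptor, the mTORC1 scaffold, fell by 0.82 ± 0.19 in WT clones (0.0050) and gave -0.06 ± 0.19 in KO clones (0.81). Ddit4, an inhibitor of mTORC1, was higher in KO than in WT clones, by 1.81 ± 0.29 in medium (0.015) and 2.64 ± 0.31 after stimulation (0.0016), at group means of 11.6 against 3.31 CPM and 17.3 against 2.76 CPM. Of 13 tested genes of ribosome rescue and quality control, 3 rose and 3 fell in WT and 4 rose and 3 fell in KO clones (medians -0.01 and 0.21; with library totals 2 higher and 7 lower, and 3 and 6). Ascc3, a helicase that takes apart collided ribosomes, rose by 1.53 ± 0.16 and 1.84 ± 0.16 (3.1e-05 and 7.4e-06), and Eif2ak4, the kinase that senses stalled ribosomes, fell by 1.14 ± 0.18 and 1.03 ± 0.18 (0.00049 and 0.00070).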

How the data were processed

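RNA-seq counts of 12 libraries were used. The authors deposited 1 table of whole-number counts per Ensembl gene, with mm10 and GRCm38 as builds and DESeq2 as a tool in the submitters' processing notes. For the aligner, the counter and strand, the entry is: not given in the sources used here. Names, exon lengths and transcripts came from GENCODE M21. The members and lists were chosen with earlier results of these data known.

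Counts were fitted with edgeR 4.0.16 in R 4.3.3 (filterByExpr, which kept 12231 genes and left out 252; TMM; robust quasi-likelihood with 1 mean per group over 12 libraries, 8 residual degrees of freedom), with Benjamini-Hochberg adjustment over all genes tested and calls below 0.05. The fit was tested on simulated data. P-values measure the spread between clones, and KO groups would hold 2 independent clones should KO 1A and 1B share an origin. Group summaries used exact two-sided permutation tests. Alternatives were RLE factors, library totals alone, TMM without the members, no filter, DESeq2 1.42.0, a clone block, each clone left out, and KO 1A and 1B summed. The labels pair libraries by clone. Deviations from group means of a clone's medium and stimulated library correlated at 0.62, 0.68 and 0.62 in WT 1, 2 and 3. In KO 1A, 1B and 2 these correlations were 0.37, 0.34 and 0.54. The best correlation with a different clone came close to the own value in KO 1A, at 0.35, and reached 0.22 in KO 1B. All remaining clones had negative best values, from -0.39 (KO 2) to -0.11 (WT 3). The clone behind each best value was not recorded, so a shared origin of KO 1A and 1B was not tested.

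Genes named were the 6 highest and 6 lowest of each comparison, paralogs with their core genes, the 5 highest and 5 lowest by mean CPM, Rplp0, Rplp1, Rplp2, Rpsa, Fau, members that are no subunit and, from each list, up to 3 per direction by p. Genes outside this rule that are named for their sequence, their level per length or their DESeq2 call were chosen after their values were seen. Some genes that the rule names are not reported here, though they stay in all counts, medians and tests.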

Additional observations from a re-analysis of the deposited data

Results flagged for a closer look

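Rpl15, a large-subunit gene with a long pyrimidine run at its start, had values of opposite sign in the genotypes, with all 3 WT clones higher after stimulation and all 3 KO clones lower. The log2 ratio of stimulated to medium was 0.24, 0.18 and 0.11 in WT 1, 2 and 3 and -0.09, -0.05 and -0.04 in KO 1A, 1B and 2. The difference between the responses, KO minus WT, was -0.23 ± 0.20 (SE) and did not pass edgeR's test (unadjusted p = 0.27, adjusted p = 1.00). With library totals alone both responses were negative, at -0.19 in WT and -0.44 in KO clones. Groups of 3 libraries are too small for a check of single outlying samples.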

How the results depend on the processing

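Called genes in the responses depended on scaling and on single clones. With library totals alone, WT had 1 called higher, 3 lower and a median of 0.015, KO had 1 higher, 3 lower and a median of -0.029, and 2 were called higher in KO against WT after stimulation. Of all 12231 genes, 1586 were called higher and 5240 lower in WT, and 1793 and 5520 in KO. In KO against WT after stimulation 164 of all genes were called higher. Sign changes with that scaling included Rpl5 (-0.30 in WT, -0.33 in KO), Rpl10a (-0.33 in KO), Rps3 (-0.0016 in WT, -0.032 in KO), Rpl7l1 (-0.039 in KO), Rpl22 (-0.071 in WT) and Rpl7 (-0.019 in KO). DESeq2 called 1 gene higher in KO against WT in medium and 6 after stimulation. With the replicate block 55 were called higher in WT and 52 in KO, all 36 and 37 calls among them, beside 29.8% and 32.1% of all genes. With KO 1A and 1B summed, 6 were called higher in the KO response and 0 in KO against WT after stimulation, beside 2460 and 12 of 12355 genes.

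Leaving out 1 clone gave 9 to 31 called higher in WT, 6 to 43 in KO and 0 to 4 in KO against WT after stimulation, and WT medians of 0.33 to 0.37. Of the 12299 to 12352 genes tested in these fits, 2427 to 2825, 2295 to 3468 and 9 to 268 were called higher. Of 36 WT calls 9 remained without WT 2, and of 37 KO calls 6 remained without KO 1A. These fits have fewer libraries and fewer residual degrees of freedom. Beyond library totals, none of the 36 and 37 calls changed sign with RLE factors, TMM without the members, no filter, DESeq2, the block or a clone left out. With protein-coding counts less the 100 highest other genes as denominator, the share of counts was 1.98% in WT medium, 2.04% in WT stimulated, 2.41% in KO medium and 2.41% in KO stimulated libraries, and KO libraries again lay above WT libraries. Genes with under 10 CPM, such as Rpl29 with 6 counts in a library, have wide errors.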
